A study of Homo sapiens with 12 samples.

Results

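The proneural programme that acts downstream of the transcription factor Ngn2 was described in human neurons made by overexpressing Ngn2 in cells derived from the H1 embryonic stem cell line. The members were 10 genes chosen by name: NEUROG2, NEUROD1, NEUROD4, NHLH1, INSM1, HES6, DLL3, CUX2, MYT1 and MYT1L. Of these, 9 had a named transcript among the 19972 transcripts counted, and the RNA and footprints of NEUROD4 were not analysed here. Homozygous Nterm/Nterm neurons, in which both copies of LLPH carry an allele called Nterm, were compared with wt/wt neurons, which are wild type at LLPH. The sources used here say neither what the Nterm allele changes in LLPH nor whether each genotype is 1 clone. All cultures of both genotypes received Ngn2 and were harvested at day in vitro 14 without added glia. Their medium, replaced on day 5 and in part on day 10, contained 2 µg/mL doxycycline and 4 µM cytosine arabinoside, a drug that kills dividing cells. Cells were harvested in cycloheximide at 100 µg/mL, which holds ribosomes on the mRNA. Each genotype had 3 RNA-seq libraries, made from polyA RNA, and 3 Ribo-seq libraries of ribosome footprints, the mRNA fragments that ribosomes protect from digestion.

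Proneural genes encode basic helix-loop-helix factors that pair with E proteins, bind the DNA motif called the E-box and switch a dividing progenitor to neuronal differentiation. Neurogenins such as NEUROG2 act early and activate NEUROD family members, NHLH1, the zinc finger factors INSM1, MYT1 and MYT1L, and components of the Notch pathway, through which a differentiating cell holds back its neighbours. ID proteins take up E proteins and so oppose the proneural factors, and REST represses neuronal genes outside neurons.

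The RNA libraries held 18944427 to 25089790 counts and the footprint libraries 12652833 to 16356419. In 6 samples, all of them footprints, the genotype tag contradicts the title, description and column name, so that each footprint direction below rests on the titles and would have the opposite sign under the tag. The zinc finger gene ZNF667 had 0, 0 and 8 RNA counts in Nterm/Nterm and 357, 291 and 385 in wt/wt libraries. Its footprints numbered 0, 2 and 1 in libraries titled Nterm/Nterm and 231, 282 and 214 in those titled wt/wt. TCEAL5 ran the other way, with 467, 439 and 412 RNA counts in Nterm/Nterm and 4, 1 and 3 in wt/wt libraries, and with 426, 313 and 424 footprints in libraries titled Nterm/Nterm and 4, 5 and 2 in those titled wt/wt. By the titles, the footprints of both genes lay in the genotype that held their RNA. By the tag they would lie in the genotype nearly without it, and the titles were followed. LLPH itself had 39, 22 and 36 footprints in Nterm/Nterm and 88, 135 and 98 in wt/wt libraries. LLPH RNA averaged 30.6 CPM, a count scaled to library size, in Nterm/Nterm and 27.8 CPM in wt/wt, and was not called (adjusted p = 0.135, edgeR). Neuron markers were abundant in all 6 RNA libraries: the neurofilament gene NEFM averaged 4626 CPM in Nterm/Nterm and 3871 CPM in wt/wt.

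To show the DNA that proneural factors could face at the members, the 250 bases before the annotated gene start were taken from RefSeq (GRCh38.p14), in which 8 member genes, NEUROD4 among them, matched with 12 windows and DLL3 and INSM1 did not. The sequences are those of NEUROD1, which had the largest RNA and footprint changes of the 9 members, and of NHLH1, whose window holds the E-box form CAGATG. They run 5′ to 3′ on the gene's strand, in lower case, with any E-box (CANNTG, where N is any base) in capitals. NEUROD1 lies on the minus strand at chr2:181680518-181680767, and no E-box was found in this window. NHLH1 lies on the plus strand at chr1:160366821-160367070, and its E-box begins 210 bases before the start.
NEUROD1: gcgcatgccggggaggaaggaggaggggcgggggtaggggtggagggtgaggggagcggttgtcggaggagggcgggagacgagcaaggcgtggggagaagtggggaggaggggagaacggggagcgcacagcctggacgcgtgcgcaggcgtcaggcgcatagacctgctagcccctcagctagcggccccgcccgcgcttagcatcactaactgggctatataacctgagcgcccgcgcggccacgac
NHLH1: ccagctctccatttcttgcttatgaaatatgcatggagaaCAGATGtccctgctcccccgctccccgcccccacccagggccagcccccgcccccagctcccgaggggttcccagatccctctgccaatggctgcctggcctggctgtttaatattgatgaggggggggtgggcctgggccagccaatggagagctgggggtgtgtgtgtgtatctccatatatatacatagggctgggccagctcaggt

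CAGATG, searched on both strands, occurred in 2 of the 12 member windows, 1 of NHLH1 and 1 of MYT1L, and in 12.2% of all 35116 RefSeq windows of the same length. CAGCTG occurred in 3 of the 12 and in 14.0% of all windows. The general form CANNTG, which includes both, occurred in 6 of the 12 and in 61.8% of all windows. MYT1L and CUX2 had more than 1 window each, so these are shares of windows and not of genes. All are matches of letters and not sites of binding.

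NEUROG2, the human counterpart of the factor that was overexpressed (ENST00000313341, chromosome 4), stood apart from the other members in its footprints relative to its RNA. Its RNA level was 4.70, 3.46 and 4.35 CPM in Nterm/Nterm and 3.86, 4.26 and 4.79 CPM in wt/wt libraries, from 66 to 93 counts and 93 to 120 counts per library. In footprints it reached 165, 162 and 159.8 CPM in Nterm/Nterm and 146, 137 and 162 CPM in wt/wt libraries, from 2060 to 2429 and 1919 to 2330 footprints. The genotypes overlapped in both assays. The RNA log2 change, Nterm/Nterm minus wt/wt, was -0.04 ± 0.17 (SE, adjusted p = 0.888) with a 95% interval of -0.41 to 0.32, by edgeR's quasi-likelihood test with Benjamini-Hochberg adjustment over all transcripts tested. For its footprints it was 0.13 ± 0.07 (SE, adjusted p = 0.253) with an interval of -0.02 to 0.27 by the same test. Neither passed the threshold of 0.05. Counts from the introduced Ngn2 and from the cells' own NEUROG2 cannot be told apart in this table, and the sources used here give neither species nor sequence of the introduced Ngn2.

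The ratio of footprint CPM to RNA CPM, a measure of how heavily an mRNA is loaded with ribosomes, was 38.9 for NEUROG2 in Nterm/Nterm and 34.5 in wt/wt neurons. Over the 3 ratios of same-numbered libraries its SD was 6.29 in Nterm/Nterm and 2.97 in wt/wt. NEUROG2 ranked 34 of 14758 transcripts in Nterm/Nterm and 30 of 14761 in wt/wt, where the median transcript had a ratio of 1.10 in both. In the authors' deposited table, the mean ratio was 37.6 in Nterm/Nterm and 33.3 in wt/wt, which ranked 25 and 24 of 10932 transcripts, with an unadjusted p of 0.334 between genotypes. Transcript length cancels in the ratio only where both assays were counted over the same part of the transcript, which was not examined here. Whether the ratio measures ribosome load for NEUROG2 or the other members was not tested. Introduced Ngn2 and the cells' own NEUROG2 cannot be told apart, and how reads were assigned among the neurogenins is not stated.

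The close relatives NEUROG1 and NEUROG3, known in mouse for cranial sensory ganglia and the endocrine pancreas, had no RNA count in any of the 6 RNA libraries. NEUROG1 nevertheless had 293, 278 and 312 footprints in Nterm/Nterm and 253, 300 and 323 in wt/wt libraries. NEUROG3 had 590, 578 and 643 footprints in Nterm/Nterm and 570, 636 and 661 in wt/wt libraries. Set against a floor of 3 RNA counts over each group of 3 libraries, the footprint level was at least 438-fold higher than the RNA level for NEUROG1 in Nterm/Nterm and at least 476-fold higher in wt/wt. For NEUROG3 it was at least 897-fold higher in Nterm/Nterm and at least 1015-fold higher in wt/wt. Of the footprints on the 3 neurogenins together, NEUROG2 held 69.6% to 71.8% over the 6 libraries, NEUROG3 19.0% to 20.8% and NEUROG1 9.19% to 9.99%. Neither relative passed the threshold between genotypes, with footprint log2 changes of 0.12 ± 0.11 for NEUROG1 (SE, adjusted p = 0.492) and 0.07 ± 0.09 for NEUROG3 (SE, adjusted p = 0.665) by edgeR.

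Only 6 transcripts of the authors' deposited table had footprints and no RNA count in all 6 RNA libraries, and these were NEUROG1, NEUROG3 and the histone genes H4C2, H4C1, H2AC21 and H4C6. Of the 25 highest wt/wt ratios in the authors' deposited table, 21 belonged to histone genes and the other 4 to NEUROG3, NEUROG1, NEUROG2 and the zinc finger gene ZNF460. The RNA libraries were made from polyA RNA, and whether the ratios of the histone genes measure ribosome load was not tested. The neurogenins are near relatives, and no source used here states how a read matching more than 1 of them was counted, so the split of footprints among them is uncertain. The source of the footprints on NEUROG1 and NEUROG3 was not tested.

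**Figure D1:**
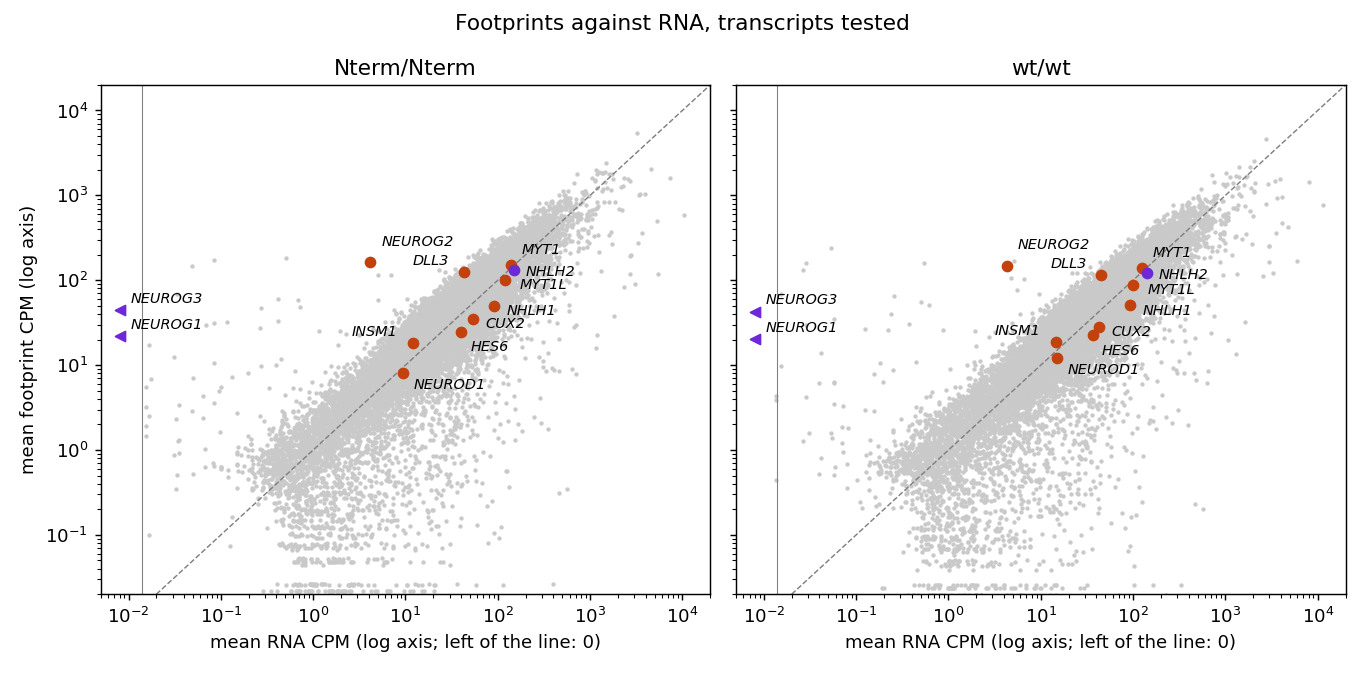
Mean footprint CPM (vertical, log axis) against mean RNA CPM (horizontal, log axis) of the transcripts tested, with Nterm/Nterm on the left and wt/wt on the right. Orange points are the proneural members, purple marks are related basic helix-loop-helix genes, triangles left of the line had 0 RNA counts, grey points are all other transcripts and the dashed diagonal marks equal CPM. NEUROG2 lies above most of the grey cloud at a ratio of 38.9 in Nterm/Nterm and 34.5 in wt/wt, while the other members lie within it.

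NEUROD1 (ENST00000295108, chromosome 2), the factor that follows the neurogenins and carries differentiation forward, was lower in Nterm/Nterm neurons in both RNA and footprints. Its RNA level was 9.60, 10.7 and 7.57 CPM in Nterm/Nterm and 16.9, 13.5 and 14.7 CPM in wt/wt libraries, from 190, 205 and 162 counts and from 419, 295 and 369 counts. Its footprint level was 8.09, 6.99 and 9.15 CPM in Nterm/Nterm and 11.8, 12.2 and 12.6 CPM in wt/wt libraries, from 90 to 139 and from 155 to 208 footprints. Every Nterm/Nterm library was below every wt/wt library in both assays. NEUROD1 RNA averaged 9.30 ± 1.60 CPM in Nterm/Nterm and 15.0 ± 1.69 CPM in wt/wt (SD, n = 3 each), a fold of 0.616 and a log2 change of -0.70 ± 0.13 (SE, adjusted p = 0.00427, edgeR). Its footprints averaged 8.08 ± 1.08 CPM in Nterm/Nterm and 12.2 ± 0.398 CPM in wt/wt (SD, n = 3 each), a fold of 0.664 and a log2 change of -0.59 ± 0.13 (SE, adjusted p = 0.00448, edgeR). With each library left out in turn, NEUROD1 passed the threshold in 6 of 6 RNA fits, at log2 changes of -0.81 to -0.57, and in 6 of 6 footprint fits, at -0.70 to -0.50.

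NHLH1 (ENST00000302101, chromosome 1), a basic helix-loop-helix gene of newborn neurons, overlapped between genotypes in both assays. NHLH1 RNA was 91.2, 86.4 and 96.8 CPM in Nterm/Nterm and 92.0, 92.5 and 96.4 CPM in wt/wt libraries, a log2 change of -0.03 with a 95% interval of -0.14 to 0.08 (adjusted p = 0.700, edgeR). Its footprint level was 51.3, 46.1 and 52.2 CPM in Nterm/Nterm and 46.4, 51.7 and 53.3 CPM in wt/wt libraries, a log2 change of -0.02 with an interval of -0.18 to 0.14 (adjusted p = 0.909, edgeR). Its paralog NHLH2 had an RNA log2 change of 0.09 ± 0.05 (SE, adjusted p = 0.215) and a footprint log2 change of 0.12 ± 0.07 (SE, adjusted p = 0.296), with overlap in both assays.

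**Figure D2:**
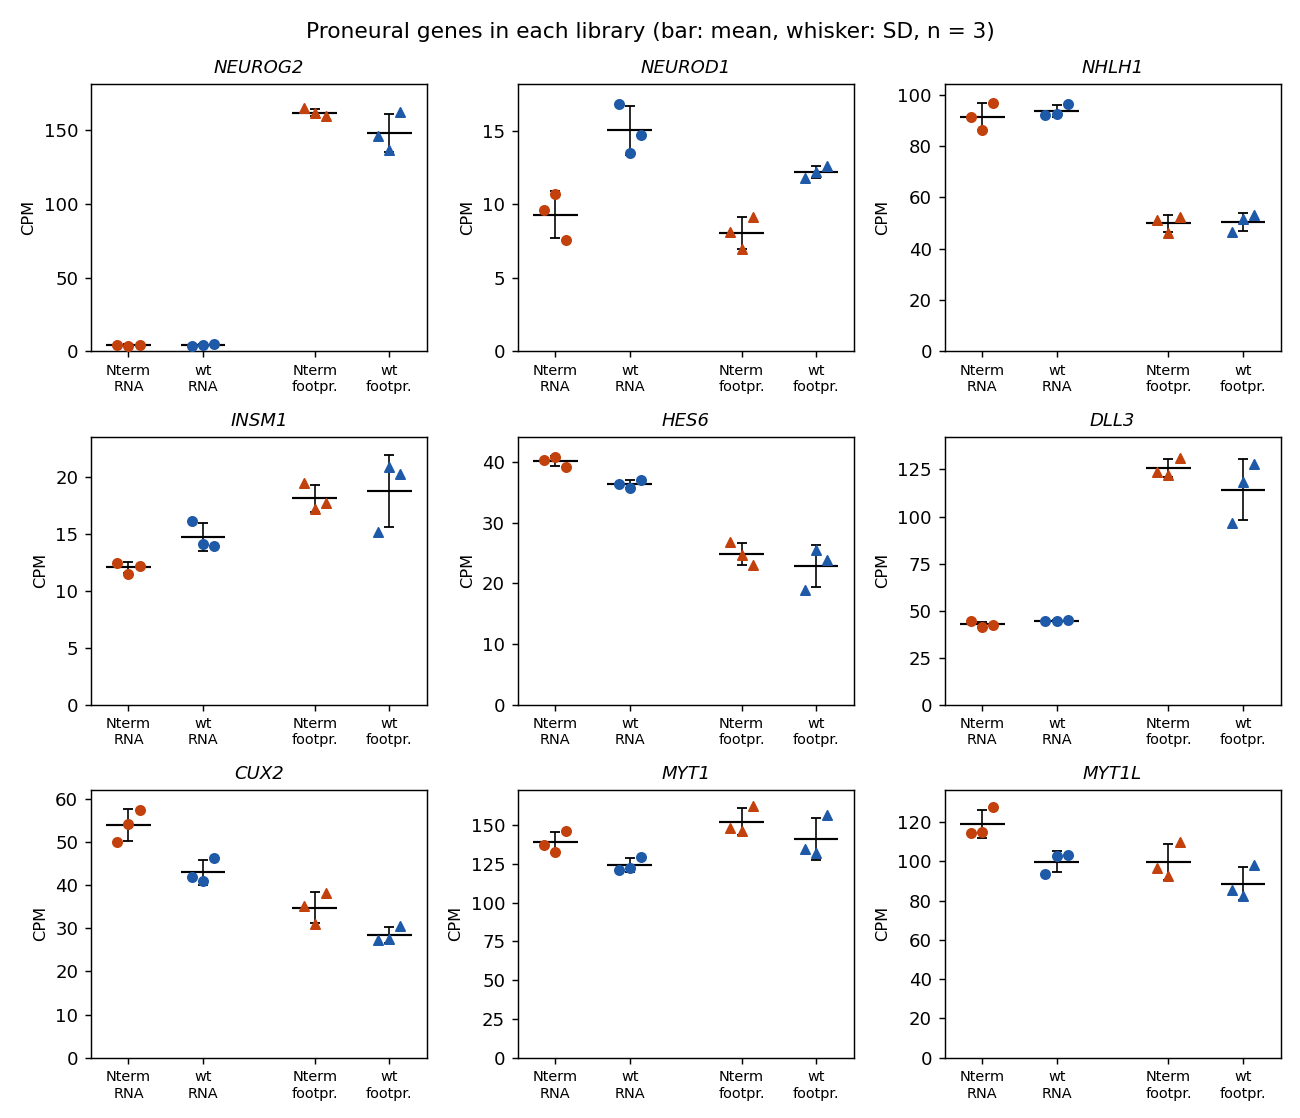
CPM (vertical, linear axis from 0) of the 9 members in each library, with RNA as circles and footprints as triangles, Nterm/Nterm in orange left of wt/wt in blue, and bars for the mean and SD of 3 libraries. NEUROD1 is lower and CUX2 higher in every Nterm/Nterm library than in any wt/wt library in both assays, and NEUROG2 has 3.46 to 4.79 CPM in RNA and 137 to 165 CPM in footprints.

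DLL3 (ENST00000356433, chromosome 19), a Notch ligand relative that in mouse acts against Notch signalling within the same cell, had many footprints relative to its RNA. Its ratio of footprint CPM to RNA CPM was 2.95 (SD 0.149 over same-numbered libraries) in Nterm/Nterm and 2.56 (SD 0.349) in wt/wt, rank 411 of 14758 and rank 808 of 14761. DLL3 RNA was 44.21, 41.2 and 42.4 CPM in Nterm/Nterm and 44.6, 44.23 and 45.2 CPM in wt/wt libraries. The groups did not overlap, though 44.21 and 44.23 CPM nearly touch, and the log2 change was -0.07 ± 0.05 (SE, adjusted p = 0.406, edgeR). Its footprint level was 124, 122 and 131 CPM in Nterm/Nterm and 96.5, 118 and 128 CPM in wt/wt libraries, which overlapped, and the log2 change was 0.13 ± 0.08 (SE, adjusted p = 0.311, edgeR).

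HES6 (ENST00000272937, chromosome 2), a HES family member that in mouse inhibits HES1 and promotes neuronal differentiation, did not pass the threshold in either assay. HES6 RNA was 40.4, 40.8 and 39.2 CPM in Nterm/Nterm and 36.4, 35.7 and 37.1 CPM in wt/wt libraries. The RNA groups did not overlap, and the log2 change was 0.14 ± 0.05 (SE, adjusted p = 0.0897, edgeR). Its footprints, at 26.8, 24.6 and 23.1 CPM in Nterm/Nterm and 18.9, 25.6 and 23.9 CPM in wt/wt libraries, overlapped, with a log2 change of 0.11 ± 0.11 (SE, adjusted p = 0.536, edgeR).

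INSM1 (ENST00000310227, chromosome 20), a zinc finger repressor of neural progenitors and neuroendocrine cells, was lower in Nterm/Nterm RNA only at the edge of the threshold. INSM1 RNA was 12.5, 11.5 and 12.2 CPM in Nterm/Nterm and 16.2, 14.1 and 14.0 CPM in wt/wt libraries. The groups did not overlap, and the log2 change was -0.29 ± 0.09 (SE, adjusted p = 0.0467, edgeR). DESeq2 gave an adjusted p of 0.0894 and limma-voom 0.0557, and in edgeR the call was lost in 5 of the 6 fits that left out a library, all but the one without wt/wt RNA library 3. Its footprints were 19.5, 17.2 and 17.7 CPM in Nterm/Nterm and 15.2, 20.9 and 20.3 CPM in wt/wt libraries, which overlapped, with a log2 change of -0.06 ± 0.12 (SE, adjusted p = 0.785, edgeR).

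MYT1L (ENST00000647738, chromosome 2) and MYT1 (ENST00000328439, chromosome 20), paralogous zinc finger factors of which MYT1L in mouse represses non-neuronal genes, were higher in Nterm/Nterm RNA. MYT1L RNA was 114, 115 and 127 CPM in Nterm/Nterm and 93.5, 103 and 103 CPM in wt/wt libraries, a log2 change of 0.26 ± 0.06 (SE, adjusted p = 0.00964, edgeR). MYT1 RNA was 137, 133 and 146 CPM in Nterm/Nterm and 121, 123 and 129.5 CPM in wt/wt libraries, a log2 change of 0.16 ± 0.05 (SE, adjusted p = 0.0402, edgeR). The genotypes did not overlap for either gene. Without wt/wt RNA library 1 the MYT1L call was lost (adjusted p = 0.0673), and the MYT1 call was lost in 4 of the 6 fits that left out a library, those without Nterm/Nterm RNA library 1 or 3 or wt/wt RNA library 1 or 2. In footprints the genotypes overlapped for both genes. MYT1L footprints were 96.5, 92.3 and 109.9 CPM in Nterm/Nterm and 85.3, 82.5 and 98.1 CPM in wt/wt libraries, a log2 change of 0.17 ± 0.08 (SE, adjusted p = 0.171, edgeR). MYT1 footprints were 148, 146 and 162 CPM in Nterm/Nterm and 134, 132 and 156 CPM in wt/wt libraries, a log2 change of 0.11 ± 0.07 (SE, adjusted p = 0.355, edgeR).

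CUX2 (ENST00000261726, chromosome 12), a homeodomain factor of upper-layer cortical neurons, was higher in Nterm/Nterm neurons in both assays. CUX2 RNA was 50.0, 54.1 and 57.4 CPM in Nterm/Nterm and 41.8, 40.8 and 46.3 CPM in wt/wt libraries. Its footprint level was 35.2, 31.0 and 38.0 CPM in Nterm/Nterm and 27.3, 27.5 and 30.5 CPM in wt/wt libraries. The genotypes did not overlap in either assay, though the lowest Nterm/Nterm and highest wt/wt footprint values, 31.0 and 30.5 CPM, lay close together. For its RNA the log2 change was 0.33 ± 0.07 (SE, adjusted p = 0.00723, edgeR), a fold of 1.25, and passed the threshold in 6 of 6 fits that left out a library. For its footprints the log2 change was 0.29 ± 0.09 (SE, adjusted p = 0.0374, edgeR), and the call was lost with DESeq2 (adjusted p = 0.0612), with library totals only, with a mean of at least 10 CPM and without Nterm/Nterm footprint library 1 or 3 or wt/wt footprint library 1 or 2.

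Counted over the 9 members, CUX2, MYT1L and MYT1 were higher and NEUROD1 and INSM1 lower in Nterm/Nterm RNA. Over all 14659 transcripts of the RNA fit the share called was 17.9%, with 7.25% higher and 10.6% lower. Without wt/wt RNA library 1, NEUROD1 and CUX2 were the 2 members called. In RNA, 7 of the 9 members had groups without overlap, against 36% of all transcripts tested. In footprints, CUX2 was higher and NEUROD1 lower, where 13.3% of 13566 transcripts passed, 4.36% higher and 8.91% lower, and the groups did not overlap for 2 of the 9, against 30.7% of all. The median log2 change of the members was -0.03 in RNA and 0.11 in footprints, beside medians over all transcripts tested of -0.00039 and 0.0083. The members thus moved in both directions within each assay.

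Translational efficiency, here footprints per RNA, was compared between genotypes in 1 model of all 12 libraries with an interaction term. None of the 9 members passed the threshold with edgeR or limma-voom (DESeq2 gave none of them an adjusted p), and 0 had an unadjusted p under 0.05 with edgeR, while 3 of 14786 transcripts passed with edgeR (0.0203%, of which 0.00676% higher and 0.0135% lower). LLPH itself was among these 3, at a log2 change of -1.74 ± 0.18 (SE, adjusted p = 6.67e-05, edgeR). The log2 changes of the members ran between -0.08 for MYT1L and 0.23 for INSM1, with SEs of 0.09 to 0.19. The 95% intervals given here are not limits of detection, since calls were made on p-values adjusted over all 14786 transcripts. The glial marker CSPG4, for one, had an efficiency change of -1.01 ± 0.19 (SE) and was not called (adjusted p = 0.105, edgeR). NEUROD1 had a log2 change in efficiency of 0.11 with a 95% interval of -0.28 to 0.50, and a footprint to RNA ratio of 0.868 (SD 0.283) in Nterm/Nterm and 0.813 (SD 0.106) in wt/wt. NEUROG2 had a change of 0.17 with an interval of -0.14 to 0.49, and NHLH1 one of 0.02 with an interval of -0.18 to 0.21. DLL3 had a change of 0.20 with an interval of -0.02 to 0.43. Of the 9 members, NEUROG2, DLL3 and INSM1 had ratios above the median transcript in both genotypes, and MYT1L, CUX2, NEUROD1, HES6 and NHLH1 were below it in both. NHLH1 was the lowest, at 0.545 (SD 0.0148) in Nterm/Nterm and 0.539 (SD 0.0301) in wt/wt, and MYT1 was near the median, at 1.10 in Nterm/Nterm and 1.13 in wt/wt.

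**Figure D3:**
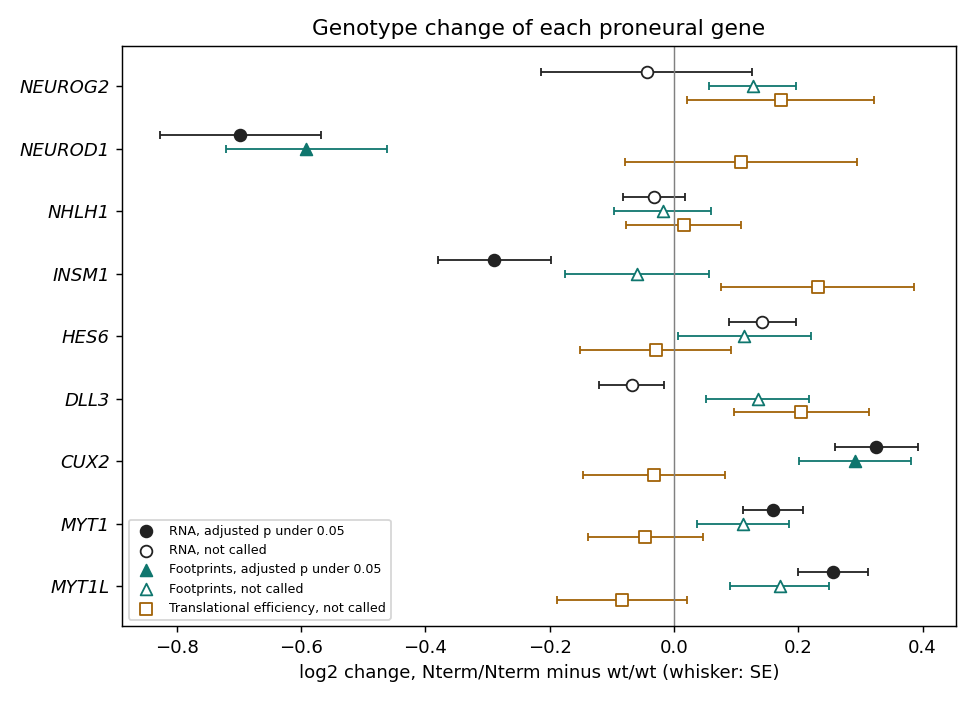
Log2 change, Nterm/Nterm minus wt/wt (horizontal), of each member in RNA (circles), footprints (triangles) and translational efficiency (squares), with whiskers for the SE and filled marks for an adjusted p under 0.05 in edgeR. NEUROD1 lies farthest left in RNA and footprints at -0.70 and -0.59, CUX2 farthest right in both at 0.33 and 0.29, and no square is filled.

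The genes that act with or against the proneural factors were then read from lists chosen from general knowledge, with earlier results of these data known. Their counts therefore describe these data and are not an independent test. Only genes with a named transcript were tested, which left 20 of 28 Notch pathway symbols and 33 of 43 symbols of neuronal transcription factors. Over all transcripts tested, 17.9% were called in RNA and 13.3% in footprints. Among the 3 E protein partners, TCF4 was lower in Nterm/Nterm RNA (log2 change -0.20 ± 0.06 SE, adjusted p = 0.0442), a call lost with DESeq2, with library totals only and without Nterm/Nterm RNA library 1 or 3 or wt/wt RNA library 1 or 2, and none passed in footprints. TCF12 had an RNA change of -0.10 and TCF3 one of -0.04, both short of the threshold. The 4 ID inhibitors moved in both directions. ID1 and ID3 were lower in Nterm/Nterm, at RNA log2 changes of -0.52 ± 0.09 and -0.50 ± 0.05 and footprint changes of -0.48 ± 0.09 and -0.33 ± 0.07 (SE), all 4 past the threshold in edgeR. ID4 was higher in RNA at 0.31 ± 0.06, and ID4 and ID2 were higher in footprints at 0.27 ± 0.08 and 0.28 ± 0.07 (SE). ID2 RNA had a change of 0.23 ± 0.08 (SE), short of the threshold in edgeR (adjusted p = 0.0578) and past it in DESeq2 (adjusted p = 0.0455). The calls of ID2 and ID4 in footprints were both lost without Nterm/Nterm footprint library 3 or without wt/wt footprint library 1, and that of ID4 also without Nterm/Nterm footprint library 1 or wt/wt footprint library 2.

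Of 20 Notch pathway genes tested, RNA calls were 2 higher and 7 lower in Nterm/Nterm, and 0 were higher and 6 lower in footprints. Over all transcripts tested, 7.25% were higher and 10.6% lower in RNA, and 4.36% were higher and 8.91% lower in footprints. The median log2 change of the list was -0.05 in RNA and -0.06 in footprints. The coactivator MAML2 fell by 0.63 ± 0.08, the receptor NOTCH1 by 0.55 ± 0.08, the receptor NOTCH3 by 0.52 ± 0.08 and the ligand JAG1 by 0.40 ± 0.08 on the log2 scale in RNA (SE). All of these also passed in footprints, at -0.49, -0.55, -0.47 and -0.39 in the same order. The RNA count of lower genes was 4 when either wt/wt RNA library 1 or 2 was left out, and the footprint count was 3 without wt/wt footprint library 1. The 2 higher RNA calls became 1 without Nterm/Nterm RNA library 2, and they became 0 without Nterm/Nterm library 3 or wt/wt library 1 or 2, and 2 higher footprint calls appeared without wt/wt footprint library 3.

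Of 33 neuronal transcription factors tested, 9 rose and 0 fell in Nterm/Nterm RNA, and 6 were higher and 0 lower in footprints, with median log2 changes of 0.11 and 0.17. The shares over all transcripts tested were 7.25% higher and 10.6% lower in RNA and 4.36% higher and 8.91% lower in footprints. ISL1, a motor and sensory neuron factor, had an RNA change of 0.33 ± 0.06, ONECUT3 of 0.26 ± 0.05 and EBF4 of 0.44 ± 0.09 (SE). Leaving out wt/wt RNA library 1 gave 2 RNA calls, and leaving out wt/wt RNA library 2 gave 3. The footprint calls numbered 3 without Nterm/Nterm library 1, 2 without Nterm/Nterm library 3, 1 without wt/wt library 1 or 2, and 10 without wt/wt library 3. Of 26 corepressor genes, 1 was higher and 5 lower in RNA, where 17.9% of all transcripts were called. In footprints 3 were higher and 2 lower, where 13.3% of all transcripts were called. REST was lower in both, at log2 changes of -0.31 ± 0.08 in RNA and -0.45 ± 0.11 in footprints (SE), and TLE4 was higher in both, at 0.28 ± 0.05 and 0.40 ± 0.07. The 5 lower RNA calls became 3 without Nterm/Nterm RNA library 1 or 2 and 0 without wt/wt RNA library 1 or 2. In footprints the 3 higher calls became 1 without Nterm/Nterm library 2 or 3 or wt/wt library 1, and the 2 lower calls became 1 without Nterm/Nterm library 1 or 3 or wt/wt library 2 and 0 without wt/wt library 1. Of 26 genes of postmitotic neurons, 13 were higher and 2 lower in RNA and 5 higher and 0 lower in footprints, among them SSTR2, a somatostatin receptor, at an RNA change of 0.71 ± 0.09 (SE). The 13 became 8 without Nterm/Nterm RNA library 3, 3 when wt/wt RNA library 1 was left out and 4 when wt/wt RNA library 2 was left out. The 5 became 2 without Nterm/Nterm footprint library 1 or wt/wt footprint library 2, 1 without wt/wt footprint library 1 and 12 without wt/wt footprint library 3.

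**Figure D4:**
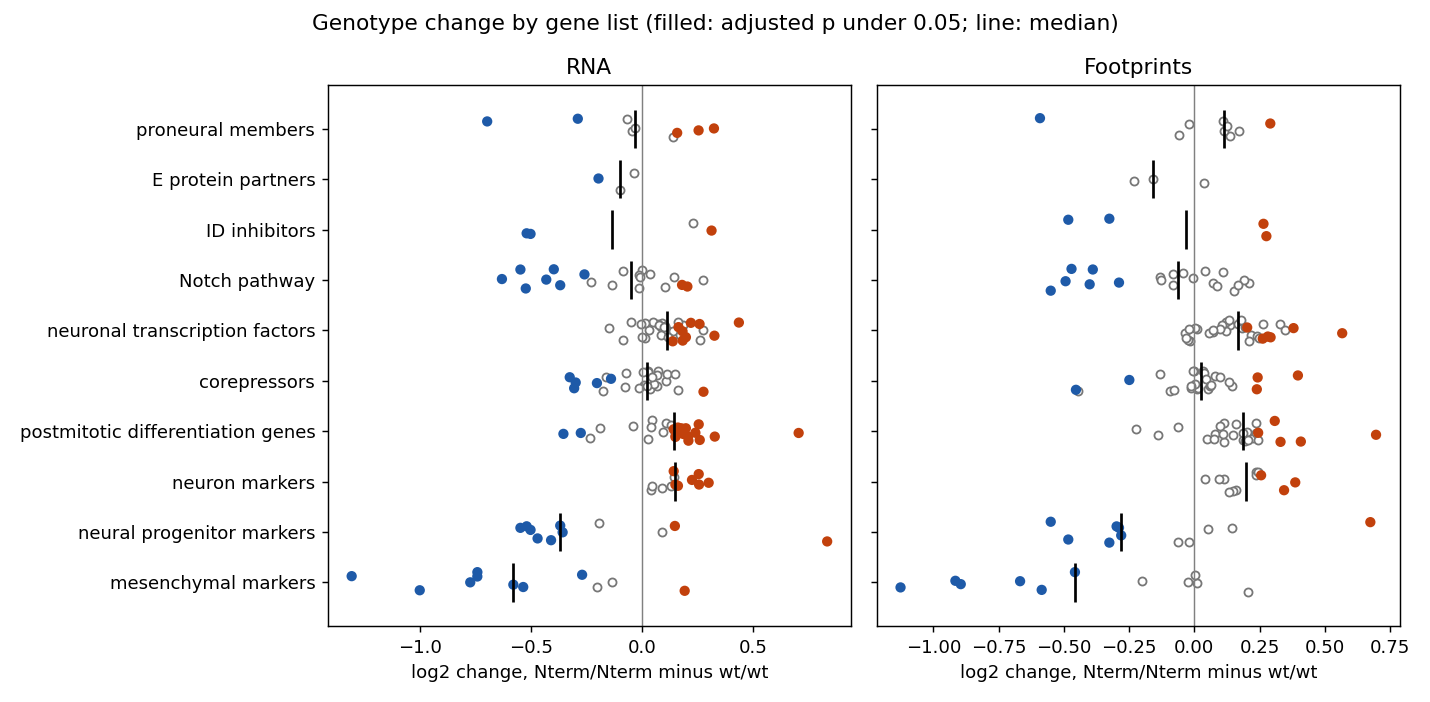
Log2 change, Nterm/Nterm minus wt/wt (horizontal), of each gene of 10 lists (rows) in RNA on the left and footprints on the right, with filled points for an adjusted p under 0.05 in edgeR (red higher, blue lower), open points for the rest and black lines for list medians. The proneural members lie on both sides of 0 with a median of -0.03 in RNA, while the median is 0.15 for neuron markers and -0.58 for mesenchymal markers.

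Markers of other cell states moved with genotype beside these results. Their counts stand against all transcripts tested, of which 7.25% were higher and 10.6% lower in RNA. In footprints the shares were 4.36% higher and 8.91% lower. Of 12 neuron markers, 7 rose and 0 fell in Nterm/Nterm RNA, and their summed level was 15662 to 16989 CPM in Nterm/Nterm and 13614 to 14546 CPM in wt/wt libraries. Several of these genes, DCX and STMN2 among them, stand also in the list of postmitotic neurons, so their calls were counted in both. The 7 became 3 when wt/wt RNA library 1 was left out and 4 when wt/wt RNA library 2 was. Of 11 neural progenitor markers, 2 were higher and 7 lower, with summed levels of 1239 to 1394 CPM in Nterm/Nterm and 1480 to 1587 CPM in wt/wt. NOTCH1, HES1, ID1 and ID3 stand in this list and in the Notch or ID lists, so their calls are not separate results. Of the higher calls, 1 was lost without Nterm/Nterm RNA library 1 or 3 or wt/wt RNA library 1 or 2. Of 11 mesenchymal markers, 1 was higher and 8 lower (the higher one lost in the same 4 fits), with sums of 3612 to 4638 CPM in Nterm/Nterm and 5214 to 6356 CPM in wt/wt. Pluripotency markers, with 0 of 8 higher and 2 lower, summed to 595 to 682 CPM in Nterm/Nterm and 763 to 842 CPM in wt/wt. Proliferation markers, with 0 of 7 higher and 3 lower, summed to 166 to 199 CPM in Nterm/Nterm and 231 to 262 CPM in wt/wt. Glial markers, with 1 of 4 higher (CSPG4, lost in those 4 fits) and 1 lower (GJA1, lost without wt/wt RNA library 1 or 2) in RNA, summed to 188 to 191 CPM in Nterm/Nterm and 178 to 189.8 CPM in wt/wt. In footprints CSPG4 had the opposite direction, with a log2 change of -0.66 ± 0.16 (SE, adjusted p = 0.0093, edgeR), and GJA1 was again lower, at -0.66 ± 0.11 (SE, adjusted p = 0.000465, edgeR).

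In footprints, the sums of 2 of these 6 lists overlapped between the genotypes. Progenitor markers, with 1 of 11 higher and 6 lower, summed to 2163 to 2438 CPM of footprints in Nterm/Nterm and 2136 to 2479 CPM in wt/wt, which overlapped. Mesenchymal markers, with 0 of 11 higher and 6 lower, summed to 4964 to 6528 CPM in Nterm/Nterm and 6464 to 7744 CPM in wt/wt, which also overlapped. The footprint sums of the other 4 lists did not overlap: the neuron sum was higher in Nterm/Nterm, with 3 of 12 genes higher and 0 lower, and the pluripotency, proliferation and glial sums were lower. Only genes with a named transcript were measured: 11 of 15 progenitor, 8 of 13 pluripotency and 7 of 14 proliferation markers. For mesenchymal and glial markers these were 11 of 20 and 4 of 14. None of the measured genes of these 6 lists was at 0 in either genotype's RNA, and the other listed genes were not examined. In these bulk libraries, fewer cells of a type and less RNA per cell cannot be told apart, and the part of these markers in the changes of NEUROD1, CUX2, INSM1, MYT1 and MYT1L was not tested.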

How the data were processed

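The authors deposited whole-number counts per Ensembl transcript in 12 libraries, not normalised, and a translational efficiency table with the mean footprint to RNA ratio, its SD and an unadjusted p-value per transcript, per the file headers. The submitters' processing notes name Salmon 1.4.0 and Bowtie2 2.3.4.3 with build GRCh37, besides limma, edgeR, UMI-tools 1.0.1 and cutadapt 2.4. Gene names came from the deposited table, which lists 10932 transcripts and gives a name for 10872 of them. Samples were grouped by title into 4 groups of 3. Nothing in the labels says that replicates are separate cultures, and p-values reflect only how far these samples spread, which may be technical.

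Tests used edgeR 4.0.16 (R 4.3.3) on the counts: TMM scaling within each assay, filterByExpr, the two-sided quasi-likelihood F test of genotype, Benjamini-Hochberg adjustment over all transcripts tested and a threshold of 0.05. Changes are thus relative to the other transcripts. The SE is the size of the log2 change divided by the square root of F. CPM uses TMM-scaled library sizes. Translational efficiency is the interaction of assay and genotype. Alternatives were DESeq2 1.42.0, limma-voom (limma 3.58.1), other scalings and filters, replicate blocks and each library left out. At 100 counts the counting error is 10%. Levels were not compared between genes, since transcript lengths were not used here. The text names all members present, the genes that check the titles, at most 4 genes per list by smallest adjusted p, lists of 4 or fewer genes in full, and marker genes of highest level. Of the genes chosen by this rule, 1 is not reported here. ZNF460, NEUROG1, NEUROG3 and the histone genes were also named for their ratios, after values were seen. The members and lists were chosen with earlier results of these data known.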

Additional observations from a re-analysis of the deposited data

How the results depend on the processing

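NEUROD1 (RNA and footprints) and CUX2 (RNA) kept their direction and call under every alternative run. With edgeR, 5 members passed in RNA (2 to 5 with a library left out) and 2 in footprints (1 to 2 with a library left out, and 1 with DESeq2, with library totals only and with a mean of at least 10 CPM). Over all transcripts, leaving out a library gave 841 to 2851 RNA calls, against 2624, and 954 to 2045 footprint calls, against 1800. Translational efficiency calls numbered 3 with edgeR and 27 with DESeq2, which gave the members no adjusted p. The log2 change in efficiency of NHLH1, 0.02, turned to -0.020 with library totals only and to -0.025 with TMM over all 12 libraries, all within its SE of 0.09 from 0, so no direction is read from it. The following log2 changes, none of them called, changed sign with a library left out: in RNA, NEUROG2 (-0.14 to 0.069) and NHLH1 (-0.076 to 0.0052). In footprints these were NHLH1 (-0.087 to 0.034), HES6 (-0.015 to 0.20), INSM1 (-0.20 to 0.024), NEUROG3 (-0.032 to 0.15), TCF3 (-0.012 to 0.11) and CDKN1A (-0.13 to 0.053). In translational efficiency they were NHLH1 (-0.057 to 0.067), CUX2 (-0.11 to 0.042), NEUROD1 (-0.024 to 0.22), HES6 (-0.16 to 0.063) and MYT1 (-0.097 to 0.034). The cause of these changes was not tested. Some list counts moved by over 1.5 times. With DESeq2, lower RNA calls became 0 for E proteins (from 1) and 3 for corepressors (from 5), and higher footprint calls of postmitotic genes became 8 (from 5). With no filter on low counts, higher footprint calls became 10 for neuronal transcription factors (from 6) and 11 for postmitotic genes (from 5). With a replicate block, higher RNA calls became 15 for neuronal transcription factors (from 9), 5 for the Notch pathway (from 2) and 4 for corepressors (from 1).

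Replicate numbers are shared by the labels of all groups. Same-numbered Nterm/Nterm and wt/wt libraries correlated in their deviations from group means at 0.0973, 0.104 and 0.104 in RNA and at 0.0549, 0.0469 and 0.149 in footprints. Same-numbered RNA and footprint libraries did so at 0.077, 0.105 and 0.195 in Nterm/Nterm and at 0.0328, 0.0357 and 0.0951 in wt/wt. Each library correlated best with its own number. The labels state no batch, and the main fits did not pair the samples, so their p-values leave out any structure that same-numbered libraries share. The source of these correlations was not tested. A replicate block gave 4504 RNA calls, 2317 footprint calls and 5 translational efficiency calls, and a replicate block within genotype gave 20 of the last. It changed no member's call in RNA or footprints. The comparison of levels between members, per coding length, was not run, since lengths were not used here. Depth limits NEUROG2 RNA, at 66 to 120 counts per library, and NEUROD1 footprints, at 90 to 208.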
